A study of Rattus norvegicus with 9 samples.

Results

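The network and anchoring collagens of cultured rat kidney fibroblasts were described here as 8 genes, Col4a1, Col4a2, Col4a5, Col7a1, Col8a1, Col8a2, Col15a1 and Col18a1. They were taken by gene symbol from a per-library table of 22050 genes, in which 47 rows encoded collagen chains, so that 39 collagen rows lay outside the set. The cells were NRK-49F, an established line of rat renal fibroblasts of wild-type genotype, and all groups received TGF-β1, a cytokine that drives fibroblasts to deposit matrix, for 48 h. Alongside TGF-β1, one group received YWCH-4A, a second YEXX-2A and the third vehicle, with 3 RNA-seq libraries each. Both small molecules are identified by code name only, and the labels give neither a dose nor a time of addition, so matched doses cannot be assumed in the comparison between them. Unstimulated cells were not analysed here, and a single line without epithelium or endothelium is a limited model of a basement membrane. The labels name biological replicates without saying whether these were separate cultures, so the p-values reflect variation among libraries that may be technical.

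Fibrillar collagens build cables, whereas the collagens described here form sheets, hexagonal lattices and anchors at basement membranes. Type IV collagen is the covalently crosslinked scaffold under epithelia and endothelia and around muscle and fat cells, and in the kidney it underlies tubules and the glomerular filter. Type VIII chains assemble into hexagonal lattices, types XV and XVIII are basement membrane proteoglycans whose C-terminal ends can be released as fragments, and type VII forms the anchoring fibrils that tie the basement membrane of skin to the dermis.

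Total estimated counts ran from 13675880 to 21923706 per library. The biological coefficient of variation was 3.66% among YWCH-4A libraries, 7.39% among YEXX-2A libraries and 16.7% among vehicle libraries, and 4.68% among vehicle libraries without replicate 2, which stood apart. The 9 fibroblast markers, with Col1a1 the most abundant, summed to 10035 to 10859 CPM (counts scaled to library size, with TMM factors) in YWCH-4A, 27821 to 30485 CPM in YEXX-2A and 35003 to 45967 CPM in vehicle libraries. Pdgfra averaged 292 CPM with YWCH-4A, 184 CPM with YEXX-2A and 180.1 CPM with vehicle, and Vim 3135, 6463 and 6712 CPM. Against vehicle, Pdgfra rose by 0.69 and Vim fell by 1.1 with YWCH-4A on the log2 scale, and neither was called with YEXX-2A (0.03 and -0.05). Of the 6 tested fibroblast markers, 1 was called higher and 2 lower with YWCH-4A, and none higher and 3 lower with YEXX-2A. Those 3 were Pdgfrb (-0.60), Col1a1 (-0.55) and Lum (-0.50). Over all tested genes, 15.7% were called higher and 14.9% lower with YWCH-4A, and 17.6% and 18.5% with YEXX-2A. Dcn reached at most 0.250 CPM, Fap 0.0519 CPM and Thy1 0.887 CPM. Of 9 kidney epithelial markers, Epcam, Krt18, Umod, Slc12a1 and Aqp2 had no count. The list summed to 896 to 945 CPM in YWCH-4A, 1481 to 1567 CPM in YEXX-2A and 1712 to 2201 CPM in vehicle libraries, nearly all of it Krt8. Summed endothelial markers stayed at or below 4.46 CPM, keratinocyte markers at or below 0.846 CPM, leukocyte markers at or below 0.455 CPM, and pericyte and mesangial markers at or below 6.38 CPM. Podocyte markers summed to 42.1 to 72.1 CPM, nearly all Synpo. Myofibroblast markers summed to 119 to 124 CPM in YWCH-4A, 145 to 147 CPM in YEXX-2A and 345 to 443 CPM in vehicle libraries. Most of each sum was Acta2, and the markers did not all move together. With YWCH-4A against vehicle, Tagln was at -5.37 and Acta2 at -1.63, whereas Myh11 rose by 1.76 (edgeR adjusted p = 6.09e-06). With YEXX-2A against vehicle, Tagln was at -1.8 and Acta2 at -1.36, and Myh11 was not called. Cnn1 reached at most 0.444 CPM. The part of these marker shifts in the collagen results was not tested. Of 13 mitochondrially encoded transcripts, none was called higher and 1 lower with YWCH-4A against vehicle. With YEXX-2A against vehicle, 8 were called higher and none lower, where 17.6% and 18.5% of all tested genes were. Between the compounds, none was higher and 11 were lower with YWCH-4A (median -0.74), where 16.2% and 15.1% of all tested genes were.

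Of the 8 genes, 7 passed the filter on low counts and were tested, and Col15a1 did not. With YWCH-4A against vehicle, all 7 tested genes passed edgeR's quasi-likelihood test at a Benjamini-Hochberg adjusted p under 0.05, where 30.6% of all 11473 tested genes did. Col4a1, Col4a2, Col4a5, Col7a1, Col8a1 and Col8a2 fell and Col18a1 rose, and in no case did the CPM of the groups overlap, as for 46.0% of all tested genes. With YEXX-2A against vehicle, 6 of the 7 passed, where 36.1% of all tested genes did. Col4a1, Col4a2, Col7a1 and Col8a2 fell, Col4a5 and Col8a1 rose, and Col18a1 was not called. The groups of those 6 did not overlap, as for 51.6% of all tested genes. With YWCH-4A against YEXX-2A, the 1 pair of compounds compared, all 7 passed, where 31.3% of all tested genes did. Col4a1, Col4a2, Col4a5, Col8a1 and Col8a2 were lower and Col7a1 and Col18a1 higher with YWCH-4A, without overlap between groups, as for 58.9% of all tested genes. The median log2 fold change of the 7 was -0.88, -0.54 and -0.45 in these 3 comparisons in turn, beside 0.03, 0.01 and 0 for all tested genes. Both comparisons with vehicle share the same vehicle libraries. In bulk RNA, fewer expressing cells and less RNA per cell cannot be told apart.

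**Figure D1:**
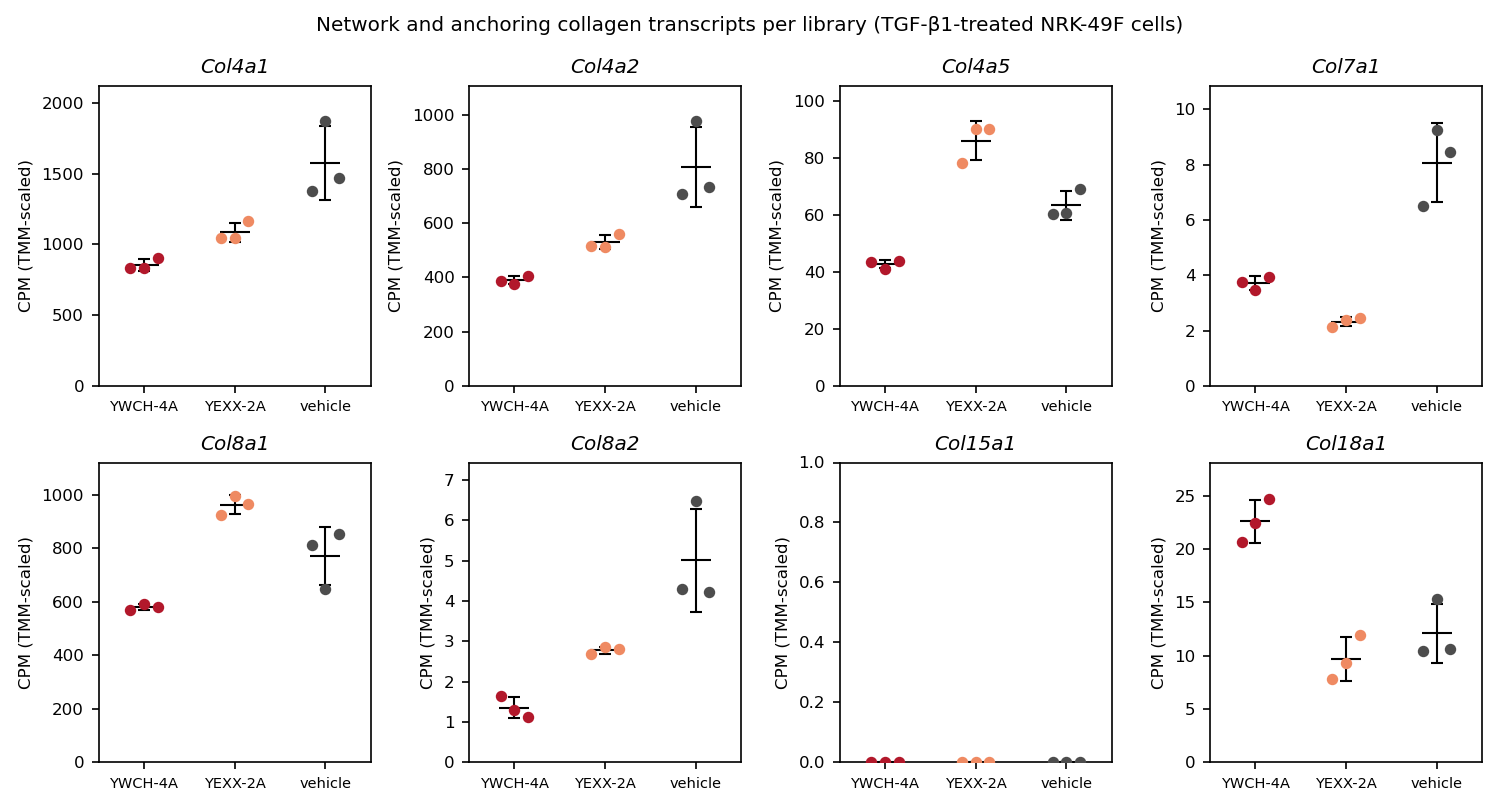
TMM-scaled CPM (y axis, from 0) of the 8 genes in each library, with the compounds and vehicle on the x axis; points are libraries, horizontal bars group means and error bars the SD (n = 3). Col4a1 and Col4a2 are lowest with YWCH-4A and highest with vehicle, Col4a5 and Col8a1 are highest with YEXX-2A, Col18a1 is highest with YWCH-4A, and Col15a1 is at 0 throughout.

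Levels per transcript length, as deposited FPKM (fragments scaled to transcript length and library size), placed the genes far apart. Col8a1 averaged 143 ± 2.98 FPKM with YWCH-4A, 222 ± 8.25 with YEXX-2A and 168 ± 29.7 with vehicle (SD, n = 3 each). Col4a1 averaged 138 ± 5.77, 165 ± 8.87 and 225 ± 27.5 FPKM and Col4a2 83.7 ± 2.76, 107 ± 4.44 and 153 ± 21.1 FPKM in the same order of groups. The top of the order thus differed by group: with vehicle Col4a1 stood above Col8a1, with YEXX-2A Col8a1 stood above Col4a1, and with YWCH-4A their libraries overlapped. Col8a1 and Col4a2 overlapped with vehicle alone, at 134 to 189 and 140 to 177 FPKM. Far below came Col4a5, with group means of 7.01, 13.3 and 9.22 FPKM, and Col18a1, with 4.80, 1.93 and 2.27 FPKM. Col8a2 (0.343, 0.660 and 1.12 FPKM) and Col7a1 (0.430, 0.250 and 0.827 FPKM) were near the low end, and their libraries overlapped with YWCH-4A.

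**Figure D2:**
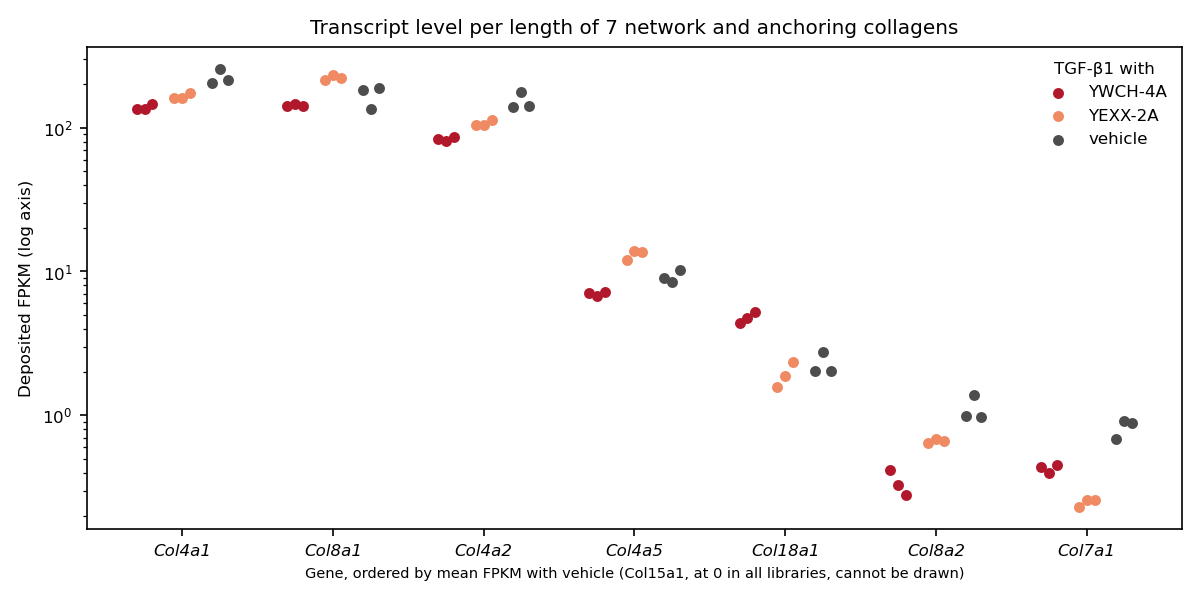
Deposited FPKM on a log axis of the 7 genes with counts, each point a library, coloured by group and ordered along the x axis by mean level with vehicle. Col4a1, Col8a1 and Col4a2 lie between 81.1 and 256 FPKM and the other 4 genes at or below 13.9 FPKM.

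Col4a1 and Col4a2 encode the chains of the most widespread type IV collagen network and lie head to head on rat chromosome 16. RefSeq windows of assembly GRCr8, from 250 bases before to 50 bases after each gene's start, were found for all 8 genes. The start sites of Col4a1 and Col4a2 lay on opposite strands with 76 bases between them. The windows are shown because both genes fell together and share 176 bases, chr16:84885471-84885646, given in capitals. Col4a1 lies at chr16:84885347-84885646 on the plus strand and Col4a2 at chr16:84885471-84885770 on the minus strand, each printed 5′ to 3′ along its own gene.
Col4a1: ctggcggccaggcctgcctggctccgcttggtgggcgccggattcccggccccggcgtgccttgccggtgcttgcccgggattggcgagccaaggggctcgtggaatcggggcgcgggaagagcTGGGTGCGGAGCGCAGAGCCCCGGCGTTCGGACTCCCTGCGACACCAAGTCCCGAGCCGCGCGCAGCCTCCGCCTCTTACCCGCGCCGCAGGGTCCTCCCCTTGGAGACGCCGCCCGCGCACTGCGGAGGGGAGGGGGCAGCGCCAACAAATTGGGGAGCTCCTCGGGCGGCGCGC
Col4a2: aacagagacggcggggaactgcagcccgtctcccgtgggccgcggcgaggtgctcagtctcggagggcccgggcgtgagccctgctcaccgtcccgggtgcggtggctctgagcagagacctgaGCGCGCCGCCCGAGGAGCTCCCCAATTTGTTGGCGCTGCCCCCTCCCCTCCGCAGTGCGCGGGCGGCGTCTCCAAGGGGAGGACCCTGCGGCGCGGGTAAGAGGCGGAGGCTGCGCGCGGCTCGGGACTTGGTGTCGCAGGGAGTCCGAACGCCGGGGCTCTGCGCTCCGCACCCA
These windows were 75.0% and 73.7% G or C, beside a median of 51.7% over 33469 rat promoter windows. Searched on both strands, each held 2 matches to the GC box GGGCGG, a sequence that 33.1% of all windows hold, and Col4a1 held 2 and Col4a2 1 match to CCAAT, which 37.5% of all windows hold. Because the windows overlap, matches in the shared stretch are counted in both.

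Col4a1 was measured at 833, 830.4 and 902 CPM with YWCH-4A, at 1046, 1044 and 1163 CPM with YEXX-2A and at 1379, 1874 and 1472 CPM with vehicle. The 3 groups did not overlap, and vehicle replicate 2 was the highest library. Against vehicle, Col4a1 fell with YWCH-4A (-0.88 on the log2 scale, SE 0.11, edgeR adjusted p = 0.000114) and with YEXX-2A (-0.54, SE 0.11, edgeR adjusted p = 0.00713). Without vehicle replicate 2 these changes were -0.74 and -0.40 and both remained called. Col4a1 was also lower with YWCH-4A than with YEXX-2A (-0.34, SE 0.11, edgeR adjusted p = 0.0314). That call did not hold when any 1 of the 6 libraries compared was left out (-0.38 to -0.29, edgeR adjusted p = 0.0631 to 0.116), and without vehicle replicate 2 it was -0.34 (edgeR adjusted p = 1.76e-05). With only the 2 groups compared it was also -0.34 (edgeR adjusted p = 3.99e-05), and the call held in 12 of 20 alternative fits.

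Col4a2 was at 387, 375 and 405 CPM with YWCH-4A, at 515, 513 and 561 CPM with YEXX-2A and at 709, 975 and 732 CPM with vehicle, again with no overlap. It fell by 1.05 on the log2 scale with YWCH-4A (SE 0.11, edgeR adjusted p = 3.9e-05) and by 0.60 with YEXX-2A (SE 0.11, edgeR adjusted p = 0.00501), each against vehicle. Without vehicle replicate 2 the falls were -0.89 and -0.45 on the log2 scale, both called. Between the compounds Col4a2 was lower with YWCH-4A (-0.45, SE 0.11, edgeR adjusted p = 0.0107), a call lost without YWCH-4A replicate 2 (-0.42, edgeR adjusted p = 0.0511). The call held in 19 of 20 alternative fits.

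The pair did not keep exactly the same proportion. The FPKM of Col4a1 divided by that of Col4a2 in the same library, which does not depend on library scaling, was 1.62, 1.66 and 1.67 with YWCH-4A, 1.52, 1.53 and 1.56 with YEXX-2A and 1.46, 1.44 and 1.51 with vehicle. The 3 groups did not overlap and were ordered as the fall of both genes. On the log2 scale the ratio differed by 0.17 (SE 0.024) for YWCH-4A minus vehicle, 0.06 (SE 0.022) for YEXX-2A minus vehicle and 0.10 (SE 0.018) for YWCH-4A minus YEXX-2A. The exact two-sided permutation test gave p = 0.1 for each of the 3 comparisons (Benjamini-Hochberg adjusted p = 0.1), the smallest p that 3 libraries against 3 allow.

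Col4a5 encodes a chain of the type IV networks that are more restricted in place, among them that of the glomerular filter, and is mutated in human X-linked Alport syndrome. It was at 43.3, 41.1 and 43.9 CPM with YWCH-4A, at 78.0, 90.0 and 90.1 CPM with YEXX-2A and at 60.2, 60.7 and 69.1 CPM with vehicle. Every YWCH-4A library was below, and every YEXX-2A library above, all vehicle libraries. Against vehicle, Col4a5 fell with YWCH-4A (-0.57 on the log2 scale, SE 0.08, edgeR adjusted p = 0.000531) and rose with YEXX-2A (0.44, SE 0.08, edgeR adjusted p = 0.00624). Between the compounds the level with YWCH-4A was 0.497 times that with YEXX-2A (-1.01 on the log2 scale, SE 0.08, edgeR adjusted p = 8.78e-06). All 3 calls held whichever library was left out, and without vehicle replicate 2 the changes against vehicle were -0.60 and 0.41.

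As a share of the summed FPKM of Col4a1, Col4a2 and Col4a5, Col4a5 held 3.07% ± 0.0837 with YWCH-4A, 4.65% ± 0.333 with YEXX-2A and 2.42% ± 0.460 with vehicle (SD, n = 3 each). The highest vehicle library, at 2.79%, was below the lowest YWCH-4A library, at 3.00%, although the level of Col4a5 itself was lower with YWCH-4A. Of the other type IV genes, Col4a3 and Col4a4, whose chains join that of Col4a5 in the glomerular network, did not pass the filter: Col4a3 had 0 to 3 counts and Col4a4 1 to 9 counts per library. A second gene model described as like Col4a3 was not examined. Col4a6, the neighbour of Col4a5 on chromosome X with 1414 bases between their start sites, was at 0.703, 1.24 and 0.938 CPM with YWCH-4A, at 2.05, 1.47 and 2.14 CPM with YEXX-2A and at 0.586, 0.950 and 1.24 CPM with vehicle. The YEXX-2A libraries were the highest 3. Col4a6 rose with YEXX-2A against vehicle (log2 fold change 1.03, SE 0.33, edgeR adjusted p = 0.0342), a call that held in 4 of 9 fits with a library left out (edgeR adjusted p = 0.0205 to 0.1). It was not called with YWCH-4A against vehicle (0.06, 95% interval -0.71 to 0.84, edgeR adjusted p = 0.906).

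**Figure D3:**
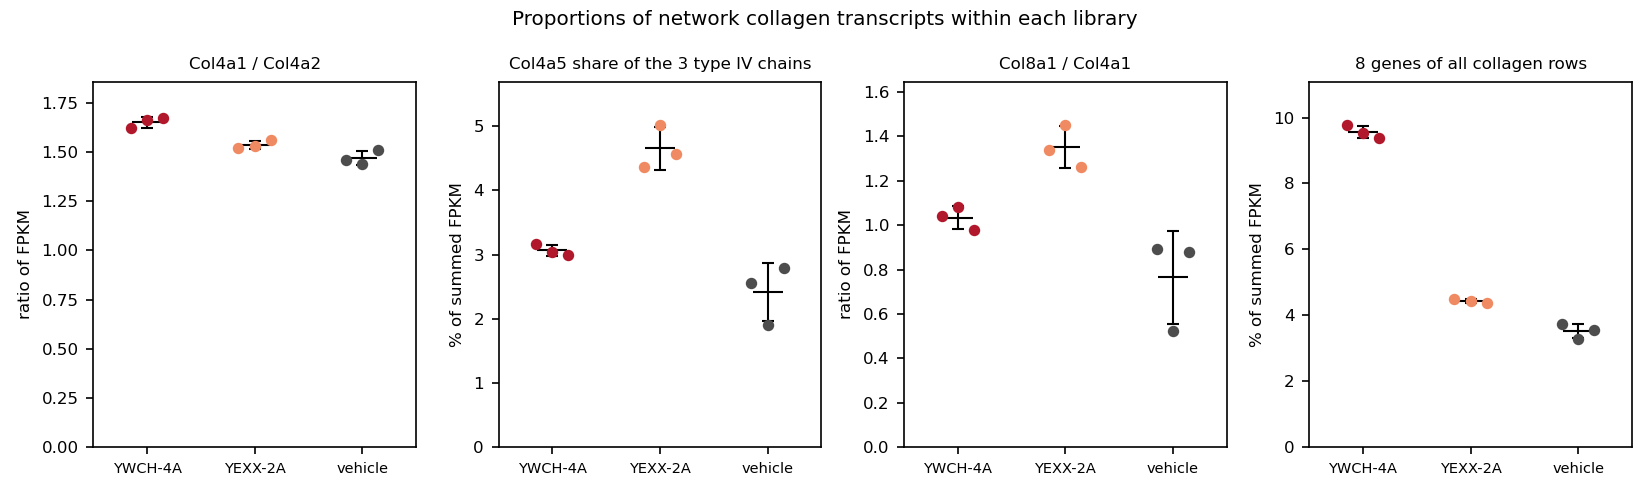
Proportions within each library, from deposited FPKM: the ratio of Col4a1 to Col4a2, the percentage of Col4a5 among 3 type IV chains, the ratio of Col8a1 to Col4a1, and the percentage of the summed FPKM of all collagen rows held by the 8 genes; points are libraries, bars means and SD (n = 3). The last share is 9.38% to 9.76% with YWCH-4A, 4.37% to 4.49% with YEXX-2A and 3.29% to 3.73% with vehicle.

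Col8a1 encodes the chain of type VIII collagen that dominated in these cells and is known from blood vessel walls and from Descemet's membrane of the cornea. It was at 571, 592.5 and 580.4 CPM with YWCH-4A, at 924, 994 and 967 CPM with YEXX-2A and at 811, 647 and 853 CPM with vehicle. Here vehicle replicate 2, the highest library for Col4a1 and Col4a2, was the lowest of its group, and the 3 groups did not overlap. Against vehicle, Col8a1 fell with YWCH-4A (-0.41 on the log2 scale, SE 0.09, edgeR adjusted p = 0.00679) and rose with YEXX-2A (0.32, SE 0.09, edgeR adjusted p = 0.0249). Between the compounds it was lower with YWCH-4A (-0.73, SE 0.09, edgeR adjusted p = 0.000189), and this call held in all 20 alternative fits.

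Both changes of Col8a1 against vehicle were less secure. Without vehicle replicate 2, the fall with YWCH-4A was -0.52 (edgeR adjusted p = 4.09e-08) and the rise with YEXX-2A was 0.21 (edgeR adjusted p = 0.00236). The rise was not called without YEXX-2A replicate 1 (edgeR adjusted p = 0.0580), replicate 2 (0.0951) or replicate 3 (0.0547). On the FPKM scale, which divides by unscaled totals, the YWCH-4A libraries (140.3, 146 and 141 FPKM) overlapped the vehicle libraries (182, 134 and 189 FPKM), and limma on log2(FPKM + 1) did not call the fall (-0.22, adjusted p = 0.136).

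Col8a2 encodes the second type VIII chain, which is mutated in a human corneal endothelial dystrophy, and was rare: its estimated counts were 35, 25 and 18 with YWCH-4A, 59, 56 and 38 with YEXX-2A and 66, 82 and 58 with vehicle. In CPM these were 1.64, 1.3 and 1.13, then 2.68, 2.85 and 2.81, then 4.30, 6.49 and 4.23, with no overlap between groups. Col8a2 fell by 1.86 on the log2 scale with YWCH-4A against vehicle (SE 0.23, edgeR adjusted p = 0.000128), the largest fall among the 7 genes in that comparison. With YEXX-2A against vehicle it fell by 0.84 (SE 0.21, edgeR adjusted p = 0.0165), and between the compounds it was lower with YWCH-4A (-1.02, SE 0.23, edgeR adjusted p = 0.00776). Without vehicle replicate 2 the changes against vehicle were -1.63 and -0.62, both called. The fall with YEXX-2A was lost without YEXX-2A replicate 1 (edgeR adjusted p = 0.0595) or replicate 2 (0.0603).

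The type VIII genes thus did not move as a pair. Col8a1 had 427 ± 86.6 times the FPKM of Col8a2 with YWCH-4A, 336 ± 2.58 times with YEXX-2A and 158 ± 53.8 times with vehicle (SD, n = 3 each). All compound libraries, at 334 or above, exceeded all vehicle libraries, at 194 or below, while the YWCH-4A and YEXX-2A libraries overlapped. The ratio of Col8a1 to Col4a1 FPKM was 1.03 ± 0.0534 with YWCH-4A, 1.35 ± 0.0919 with YEXX-2A and 0.766 ± 0.209 with vehicle, without overlap.

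Col18a1 encodes a heparan sulfate proteoglycan collagen of basement membranes, the source of the fragment endostatin. It was at 20.7, 22.4 and 24.7 CPM with YWCH-4A, at 7.82, 9.30 and 11.9 CPM with YEXX-2A and at 10.4, 15.3 and 10.6 CPM with vehicle. The YWCH-4A libraries were above all others, while YEXX-2A and vehicle libraries overlapped. Col18a1 was the single gene of the 7 that rose with YWCH-4A against vehicle (log2 fold change 0.90, SE 0.18, edgeR adjusted p = 0.00302), and without vehicle replicate 2 the rise was 1.1. It was 2.36 times as high with YWCH-4A as with YEXX-2A (1.24, SE 0.18, edgeR adjusted p = 0.000445). Both calls held in all 20 alternative fits. With YEXX-2A against vehicle it was not called (-0.33, 95% interval -0.74 to 0.08, edgeR adjusted p = 0.166), nor in any of the 20 alternatives (adjusted p = 0.068 to 0.47).

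Col15a1, the other gene of the multiplexin family, had 0 counts in every library, that is 0 of 152613987 estimated counts, which allows up to 0.0197 CPM. That limit covers counting error only.

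Col7a1 encodes the chain of anchoring fibrils, lost in human dystrophic epidermolysis bullosa, and was another rare transcript. Its estimated counts were 80, 67 and 63 with YWCH-4A, 47, 47 and 33 with YEXX-2A and 100, 117 and 116 with vehicle. In CPM it was at 3.75, 3.47 and 3.94 with YWCH-4A, at 2.14, 2.39 and 2.44 with YEXX-2A and at 6.51, 9.26 and 8.45 with vehicle. The groups did not overlap, and among the 4 genes that fell with both compounds Col7a1 was the one with its lowest level under YEXX-2A. It fell with YWCH-4A (-1.11 on the log2 scale, SE 0.16, edgeR adjusted p = 0.000447) and with YEXX-2A (-1.80, SE 0.17, edgeR adjusted p = 0.000317), each against vehicle, and without vehicle replicate 2 the changes were -1.0 and -1.69. The level with YWCH-4A was 1.61 times that with YEXX-2A (0.68, SE 0.18, edgeR adjusted p = 0.0143), a call lost without YWCH-4A replicate 3 (0.64, edgeR adjusted p = 0.0525) or YEXX-2A replicate 1 (0.62, edgeR adjusted p = 0.0607).

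The promoter windows of Col18a1 and Col7a1 are shown as those of the 2 genes that were higher with YWCH-4A than with YEXX-2A. Capitals mark matches to GGGCGG on either strand (CCGCCC where it lies on the other strand). In assembly GRCr8, Col18a1 lies at chr20:11473395-11473694 and Col7a1 at chr8:118483114-118483413, both on the plus strand.
Col18a1: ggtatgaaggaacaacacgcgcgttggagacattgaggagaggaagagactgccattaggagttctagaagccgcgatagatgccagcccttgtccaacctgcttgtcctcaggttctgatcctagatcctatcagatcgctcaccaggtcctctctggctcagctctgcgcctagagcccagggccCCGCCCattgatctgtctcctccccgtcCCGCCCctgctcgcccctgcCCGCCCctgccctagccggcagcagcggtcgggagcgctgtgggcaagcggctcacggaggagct
Col7a1: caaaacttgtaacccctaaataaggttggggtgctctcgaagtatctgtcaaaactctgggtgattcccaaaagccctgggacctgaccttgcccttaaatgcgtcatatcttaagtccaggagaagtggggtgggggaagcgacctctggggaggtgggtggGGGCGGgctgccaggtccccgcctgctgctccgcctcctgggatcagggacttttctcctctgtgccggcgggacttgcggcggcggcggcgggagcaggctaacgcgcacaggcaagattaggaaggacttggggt
Col18a1 held 3 matches and Col7a1 1, and across the set the motif occurred in 7 of 8 windows, with up to 5 matches in Col8a2 and none in Col15a1. Neither the AP-1 sequence TGANTCA nor the TATA sequence TATAAA, held by 7.33% and 14.2% of all windows, occurred in any of the 8. The SMAD box CAGAC, which 50.1% of all windows hold, occurred in Col8a1 and Col15a1.

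**Figure D4:**
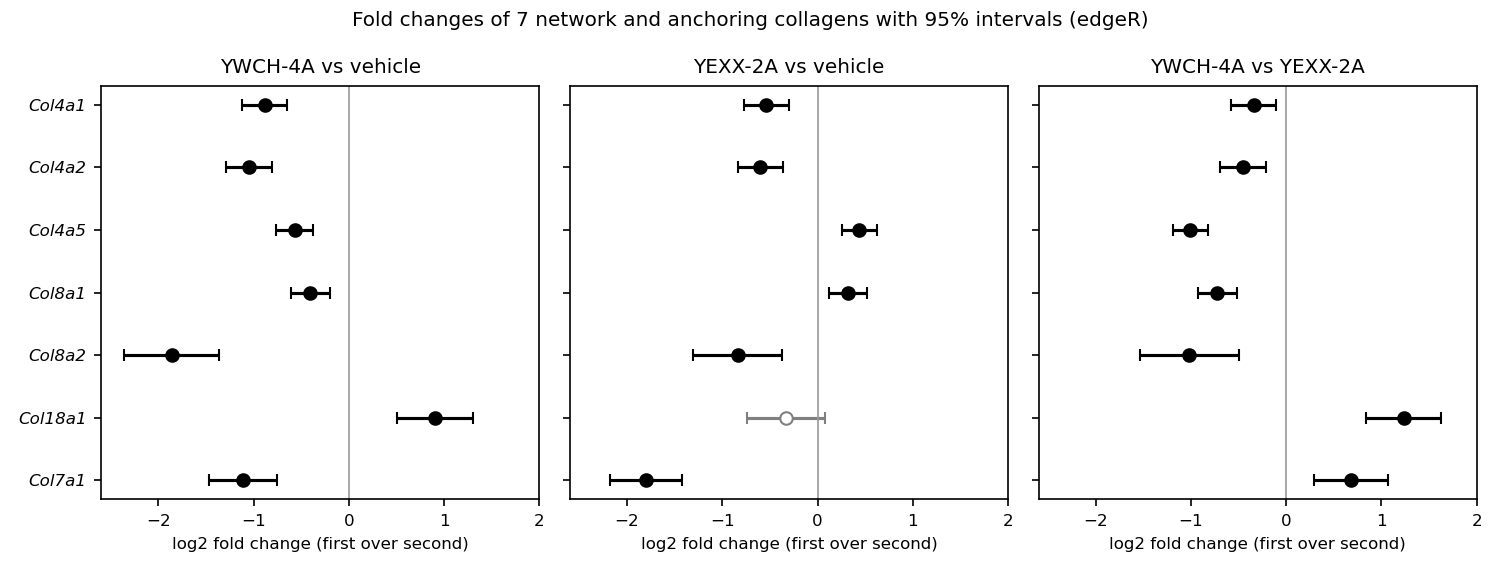
Log2 fold changes of the 7 tested genes (x axis, first group over second) with 95% intervals from edgeR, in 3 panels, 1 per comparison; filled points passed an adjusted p of 0.05 and the open point did not. Intervals of Col4a5 and Col8a1 lie on opposite sides of 0 for YWCH-4A and YEXX-2A, and Col18a1 lies right of 0 with YWCH-4A (0.90).

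Patterns across the 9 libraries were compared as the root-mean-square difference of log2 CPM centred on each gene's mean, over 11472 other tested genes. Col4a1 and Col4a2 differed by 0.0718, which ranked Col4a2 22nd from Col4a1 and Col4a1 5th from Col4a2. Ephb3 (0.0334) and Tsku (0.0384) were nearest to Col4a1, and Lonp1 (0.0521) and Fzd2 (0.0542) nearest to Col4a2. Col4a5 was most like Prnp (0.0762) and Lhfpl6 (0.0885), and Col8a1, at 0.148, ranked 20th from it. Col8a1 was most like Ppfibp1 (0.0382) and Ppm1l (0.0384), whereas its partner Col8a2 differed from it by 0.669. Col8a2 was most like Dnai2 (0.169) and Sfn (0.182) and Col7a1 like Itgax (0.189) and Fam107a (0.227), and Arrdc2 (0.151) was among the genes nearest to Col18a1. No other tested gene of the set came closer to Col7a1 than Col4a1, at 0.533, or to Col18a1 than Col4a1, at 0.804.

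Set against all collagen transcripts, the 8 genes summed to 377 ± 7.91 FPKM with YWCH-4A, 509 ± 16.1 FPKM with YEXX-2A and 559 ± 21.4 FPKM with vehicle (SD, n = 3 each). All 47 collagen rows together summed to 3948 ± 159 FPKM, 11495 ± 514 FPKM and 15917 ± 1641 FPKM in the same groups, and Col6a3 was not analysed here. These sums include 2 gene models that the table describes as the type I alpha-2 chain, Col1a2, which bear another symbol and so do not enter the list counts that follow. The set's share was therefore 9.55% ± 0.193, 4.43% ± 0.0586 and 3.53% ± 0.226, with no overlap between groups, while its summed level was lowest with YWCH-4A. Col4a1 and Col4a2 held 5.62% ± 0.123 of collagen FPKM with YWCH-4A, 2.36% ± 0.0653 with YEXX-2A and 2.37% ± 0.0902 with vehicle, and Col8a1 held 3.62% ± 0.155, 1.93% ± 0.0818 and 1.07% ± 0.275. The fibrillar collagens summed to 3301 ± 144 FPKM with YWCH-4A, 10555 ± 494 FPKM with YEXX-2A and 14806 ± 1573 FPKM with vehicle. Of 7 tested fibrillar genes, 1 was called higher and 6 lower with YWCH-4A (median log2 fold change -1.76), and none higher and 6 lower with YEXX-2A (median -0.58), each against vehicle. Of all tested genes, 15.7% were called higher and 14.9% lower with YWCH-4A, and 17.6% higher and 18.5% lower with YEXX-2A, against vehicle. Among them, Col3a1 was at -3.72 and -0.90 and Col1a1, with YWCH-4A, at -2.32. Of 12 tested genes on a list of collagens outside the set, which includes these 7, 1 was higher and 10 lower with YWCH-4A (median -1.60) and none higher and 9 lower with YEXX-2A (median -0.59).

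Among genes for proteins that share the basement membrane with type IV collagen, such as laminins, nidogens and perlecan, calls against vehicle were mostly lower. Of 19 tested, 2 were called higher and 10 lower with YWCH-4A (median -0.24) and 2 higher and 8 lower with YEXX-2A (median -0.13) against vehicle. Over all tested genes, 15.7% were called higher and 14.9% lower with YWCH-4A, and 17.6% and 18.5% with YEXX-2A. Of the 19, 5 were higher and 7 lower with YWCH-4A than with YEXX-2A (median -0.06), where 16.2% and 15.1% of all tested genes were. Lamb3, a laminin chain of epithelial basement membranes, averaged 528 CPM with YWCH-4A, 399.6 CPM with YEXX-2A and 785 CPM with vehicle, and fell by 0.57 (edgeR adjusted p = 0.0014) and 0.97 (edgeR adjusted p = 0.000426). Like Col7a1, Lamb3 was higher with YWCH-4A than with YEXX-2A (0.40, edgeR adjusted p = 0.0109). Nid2, a nidogen that binds type IV collagen, fell by 0.75 with YWCH-4A and rose by 0.41 with YEXX-2A (edgeR adjusted p = 1.19e-05 and 0.00344), the directions of Col4a5 and Col8a1.

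Genes that modify and export collagen chains mostly fell. Of 21 tested, 1 was called higher and 14 lower with YWCH-4A (median -0.66) and 1 higher and 13 lower with YEXX-2A (median -0.35), where 14.9% and 18.5% of all tested genes were called lower. P4ha1, a prolyl hydroxylase subunit, was at -1.29 and Serpinh1, the collagen chaperone HSP47, at -0.90 with YWCH-4A, and P4ha3 was at -0.84 and -0.45 with YWCH-4A and YEXX-2A. Of 13 genes of procollagen processing and crosslinking, 1 was higher and 8 lower with YWCH-4A (median -0.52) and none higher and 8 lower with YEXX-2A (median -0.42). Over all tested genes, 15.7% and 17.6% were called higher with YWCH-4A and YEXX-2A, and 14.9% and 18.5% lower. Pxdn, the peroxidase that forms the sulfilimine bond of the type IV network, fell by 0.53 with YWCH-4A (edgeR adjusted p = 0.000345) and by 0.47 with YEXX-2A (edgeR adjusted p = 0.00308) and was not called between the compounds (-0.06, edgeR adjusted p = 0.582). Bmp1, a protease that trims the type VII procollagen end, was at -0.21 with YWCH-4A (edgeR adjusted p = 0.165) and fell by 0.42 with YEXX-2A (edgeR adjusted p = 0.0178).

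Receptors for network collagens divided. Of 15 tested, 6 were called higher and 6 lower with YWCH-4A (median -0.14) and 4 higher and 5 lower with YEXX-2A (median 0.09). Of all tested genes, 15.7% were higher and 14.9% lower with YWCH-4A and 17.6% higher and 18.5% lower with YEXX-2A. Itga11, an integrin subunit that binds fibrillar collagen, had the smallest adjusted p of the list with YWCH-4A: it averaged 124 CPM with YWCH-4A, 607 CPM with YEXX-2A and 1025 CPM with vehicle, and fell by 3.05 and 0.76 on the log2 scale (edgeR adjusted p = 1.15e-08 and 0.00127). Itga1, the integrin subunit that prefers type IV collagen, averaged 170.3 CPM with YWCH-4A, 64.0 CPM with YEXX-2A and 39.6 CPM with vehicle, and rose by 2.10 and 0.69 on the log2 scale (edgeR adjusted p = 1.73e-06 and 0.00882). Itga2 rose by 2.48 with YWCH-4A and by 0.99 with YEXX-2A. Of 10 proteases that cut network collagens or release their ends, 8 were called higher and none lower with YWCH-4A (median 2.04), and none higher and 5 lower with YEXX-2A (median -0.32). Mmp9, a gelatinase that cuts type IV collagen, averaged 620.1 CPM with YWCH-4A, 15.6 CPM with YEXX-2A and 17.2 CPM with vehicle (5.17, edgeR adjusted p = 9.94e-10, with YWCH-4A and -0.14, edgeR adjusted p = 0.341, with YEXX-2A). Mmp3 was at 3.66 with YWCH-4A and -1.01 with YEXX-2A. Of 8 reference genes of the TGF-β response, 1 was higher and 6 lower with YWCH-4A (median -0.72) and 2 higher and 4 lower with YEXX-2A (median -0.19).

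**Figure D5:**
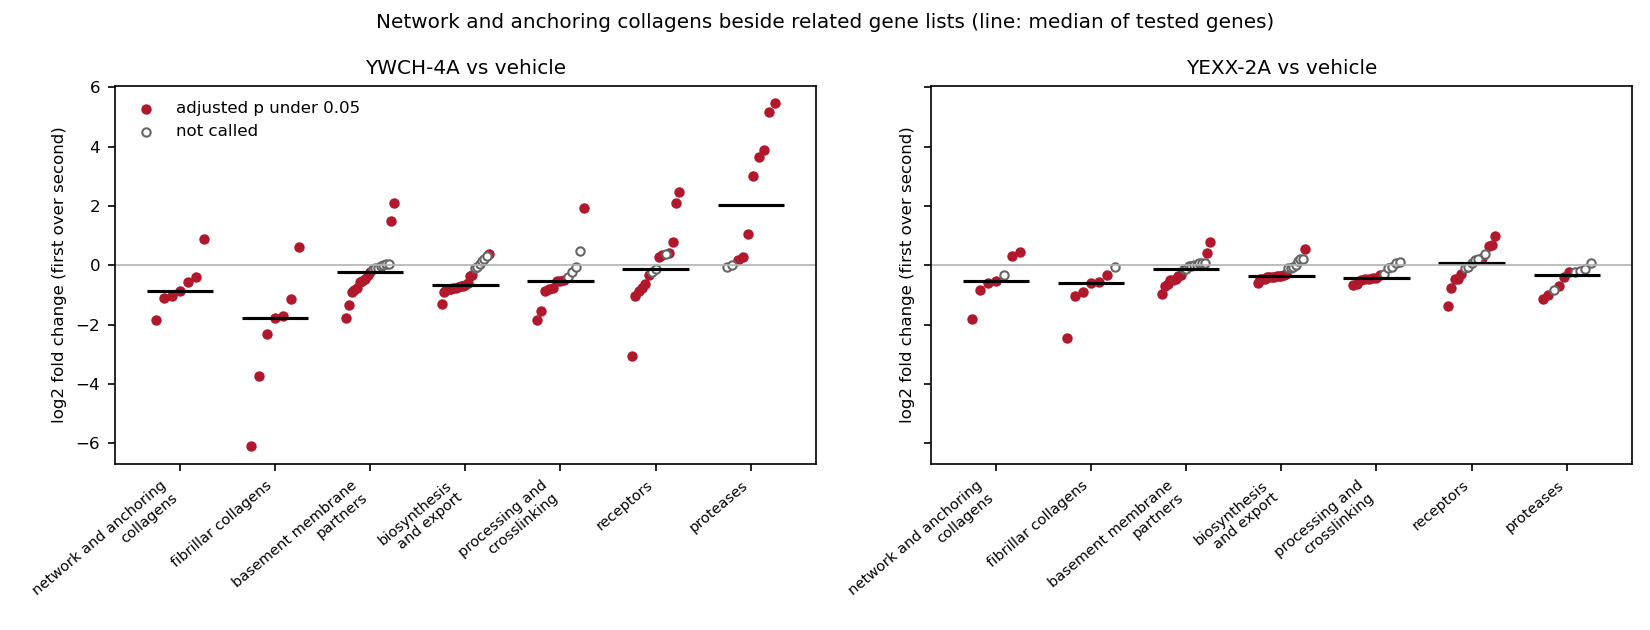
Log2 fold changes against vehicle (y axis) of the tested network and anchoring collagens and of 6 related gene lists (x axis), with YWCH-4A in the left and YEXX-2A in the right panel; each point is a gene, filled red where its adjusted p was under 0.05, and lines are medians. The collagens' median is -0.88 on the left and -0.54 on the right, and the proteases lie at a median of 2.04 on the left and -0.32 on the right.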

How the data were processed

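Per the file headers, the authors deposited estimated counts of reads per gene, with an FPKM per gene that scales them to length and library size, for 22050 genes in 9 libraries. Per the labels' protocols, poly(A) RNA was selected with oligo(dT) beads. The submitters' processing notes name StringTie 1.3.1, RSEM, edgeR and DESeq2 without their roles. Aligner, genome build, annotation and strand setting: not given in the sources used here. Whether reads of overlapping antisense genes were told apart is therefore unknown. Of the estimated counts above 0, 8.87% were not whole, and all were rounded here.

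In R 4.3.3, filterByExpr (minimum count 10) of edgeR 4.0.16 kept 11473 genes, and libraries were scaled by TMM. All 9 libraries entered a robust quasi-likelihood fit with group as the single factor. The fit was tried on simulated counts with equal spread in all groups, which cannot show how it behaves under unequal spread. P-values were two-sided and Benjamini-Hochberg adjusted over all tested genes, with calls under 0.05. The SE is the absolute log2 fold change over the root of F. The groups shared an estimate of spread, although vehicle libraries varied most.

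The genes and lists were chosen with earlier results of these data known. Named list genes were up to 4 with the smallest adjusted p per list and comparison, plus genes specific to a member. Some results on single genes that this rule names are left out here. Of 221 list entries, 212 matched. Replicate numbers were not used to pair the samples in the main fit. Deviations from group means correlated at -0.27 to 0.08 between same-numbered libraries and at -0.20 to 0.23 between differently numbered libraries. With 3 libraries per group this cannot exclude a pairing. Alternatives were other scalings and filters, DESeq2 1.42.0, limma 3.58.1 (voom, and log2(FPKM + 1 or 0.1)), only the 2 groups compared, a replicate block and each library left out.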

Additional observations from a re-analysis of the deposited data

How the results depend on the processing

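Of 408 alternative fits of single genes of the set, 387 kept the direction and the side of the threshold, 21 kept the direction and lost the call, and 0 reversed; among the 189 that left out a library, 14 lost it. With YWCH-4A against YEXX-2A, Col4a1 was at -0.34 with the replicate block (adjusted p = 0.0566), at -0.25 with limma on log2(FPKM + 1) without a filter (0.0641), and from -0.38 to -0.29 with libraries left out. In that comparison Col4a2 ran from -0.47 to -0.40 and Col7a1 from 0.62 to 0.73 with libraries left out. Col8a1 with YWCH-4A against vehicle was at -0.22 with limma on log2(FPKM + 1) (0.136), on log2(FPKM + 0.1) (0.138) and without a filter (0.189). With YEXX-2A against vehicle, Col8a1 was at 0.32 with only the 2 groups compared (0.0721), at 0.33 with the replicate block (0.057) and from 0.21 to 0.40 with libraries left out, and Col8a2 from -0.95 to -0.62. The cause of these losses was not tested.

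With YWCH-4A against vehicle, 4 of the 5 genes above the FPKM filter were called with limma on log2(FPKM + 1) and 4 with log2(FPKM + 0.1), against 7 in edgeR; Col7a1 and Col8a2 fell under that filter. On the FPKM scale the median of all genes shifted to 0.19, 0.22 and 0.09 (pseudocount 1, pseudocount 0.1 and no filter), beside 0.03 in edgeR, and 78.8%, 78.5% and 76.6% of calls were higher, beside 51.2%. With YEXX-2A against vehicle 62.4%, 60.8% and 57.2% of calls were higher, beside 48.8%, and between the compounds 73.9%, 74.6% and 73.6%, beside 51.7%. Over all genes, 4145 were called with YEXX-2A against vehicle, 1408 with only the 2 groups compared, 1931 with the replicate block, and 1044 (without YEXX-2A replicate 2) to 5308 (without vehicle replicate 3) with libraries left out, 1459 without YEXX-2A replicate 1. Between the compounds 3593 were called, 5903 with only the 2 groups compared, and 2224 (without YEXX-2A replicate 2) to 6001 (without vehicle replicate 2) with libraries left out, 2288 and 2293 without YWCH-4A replicates 1 and 3. The block changed no other call of a gene of the set. The set's share of collagens was 10.2%, 4.68% and 3.86% by counts in place of FPKM, and 58.3%, 54.2% and 50.4% with fibrillar collagens left out of the denominator, for YWCH-4A, YEXX-2A and vehicle. Depth limits Col7a1 and Col8a2, with 18 to 117 counts per library.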

Other observations

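A second gene model, LOC108348074, described in the deposited table as a collagen alpha-1(XV) chain-like gene, had 26 estimated counts in 8 of the 9 libraries, against 0 for Col15a1 in all of them. It was named after its values were seen, and whether reads of the pair were divided between the models was not tested. Among the 47 collagen rows ranked by mean FPKM, Col8a1 was 6th with YWCH-4A, 7th with YEXX-2A and 8th with vehicle, Col4a1 was 7th, 8th and 7th, and Col4a2 was 10th, 11th and 10th. Col18a1 was 16th in all 3 groups, and Col10a1, another network-forming collagen, had 1 count in 1 vehicle library and 0 elsewhere.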
